A study of Saccharomyces cerevisiae and Kluyveromyces lactis with 95 samples.

Results

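The comparison described here asks what the analog-sensitive alleles of protein kinase A (PKA) do to the transcriptome of *S. cerevisiae* while no inhibitor is present. Its members are the 30 *S. cerevisiae* libraries with the vehicle DMSO, of 95 libraries in the series, and they come from 28 cultures, 16 of PKA-AS strains and 12 of PKA-WT strains. Each allele was present in 4 deletion backgrounds: no deletion, ΔRph1/Gis1 (without *RPH1* and *GIS1*), ΔMsn2/4 (without *MSN2* and *MSN4*) and the quadruple deletion ΔMsn2/4 ΔRph1/Gis1. Every background had 4 PKA-AS and 3 PKA-WT cultures, and the 3 libraries of a PKA-AS ΔRph1/Gis1 culture were summed. All were haploid W303 cells growing exponentially in YPD, a rich glucose medium, at 30°C, and were collected 50 min after DMSO was added. The other part of each culture received 3 µM 1-NM-PP1, the ATP analog that inhibits PKA-AS. The PKA-AS parent was a strain from another laboratory, the PKA-WT parent was a different W303 strain, and the deletions were made separately in each. The PKA-AS base strain also carried an NHP6A-IRFP nuclear marker, which the study did not use. The gatekeeper mutations and the lineage of the strain therefore cannot be told apart in any value below.

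PKA is the kinase through which yeast cells translate glucose, by way of Ras and cAMP, into growth. Its catalytic subunits are held by the regulatory subunit Bcy1 until cAMP releases them, and active PKA favours ribosome production while it keeps stress genes under Msn2 and Msn4, and genes of glucose exhaustion under Rph1 and Gis1, at a low level. Replacing the bulky gatekeeper residue of the ATP pocket by glycine makes room for 1-NM-PP1, and in many kinases such a mutation also costs part of the activity, which is why a comparison without inhibitor is of interest. For the alleles used here, the study states that phosphorylation of PKA targets stays near the efficiency of the wild type.

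The gatekeeper codons of *TPK2* and *TPK3* are shown because such codons are the intended difference between the alleles. Each line gives the reference sequence (R64, RefSeq) of the coding strand, 5′ to 3′, with the methionine codon that the PKA-AS strains replace in capitals. The substitutions are M147G in Tpk2 (chromosome XVI, 166682 to 166708, plus strand) and M165G in Tpk3 (chromosome XI, 135199 to 135225, minus strand), counted from the start methionine, and both lie within the single coding exon of their gene.
*TPK2*: atctttatggtgATGgattatatcgaa
*TPK3*: gttttcatggtaATGgactacattgaa
The libraries hold counts of 3′ tags per gene, so that the codons themselves cannot be read from them. The allele shows in the response to the drug. With 1-NM-PP1, 3311 of 5779 genes (57.3%) were called in PKA-AS and 178 (3.08%) in PKA-WT, where a call is an adjusted p under 0.01 in edgeR's quasi-likelihood test.

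The DMSO libraries held 996613 to 4715139 counts on genes, and the summed cultures with 1-NM-PP1 held 188289 or more. At this depth, 5658 of 6600 listed genes had the required 2 counts in at least 3 cultures and were tested. Another 485 genes, with *RPH1* and the marker *HIS3* among them, are listed at 0 in every *S. cerevisiae* culture. With DMSO, *MSN2* had 0 to 3 counts in the ΔMsn2/4 and quadruple deletion cultures and 2 to 42 in the others, whereas *MSN4* had 1 to 22 and 8 to 180. *GIS1* had at most 17 counts in any DMSO culture, and its counts overlapped between the cultures with and without its deletion. Genes of mating type a summed to 749 to 1996 CPM (counts scaled to library size with TMM factors) and those of mating type alpha to 4.78 to 17.8. Along the first principal component, which held 53.1% of the variance, 8 cultures stood apart (-58.5 to -24.9, against -12.8 to 39.6). They are 7 of the 8 cultures numbered 1 and the PKA-WT ΔRph1/Gis1 culture 2, and ribosomal protein genes took 28.3 to 32.1% of their counts against 20.2 to 28.3% in the others. They make up 4 of the 16 PKA-AS and 4 of the 12 PKA-WT cultures. The split is uneven within 2 backgrounds: PKA-AS culture 1 against PKA-WT cultures 1 and 2 in ΔRph1/Gis1, and PKA-AS culture 1 alone in the quadruple deletion.

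A pair of libraries has *YHL050C* counts that go against its labels. *YHL050C*, an open reading frame in a subtelomeric Y′ element (chromosome VIII, 445 to 3311), had 0 to 6 counts in the other 15 PKA-AS cultures with DMSO and 0 to 3 in the 16 with 1-NM-PP1. In PKA-WT it had 6 to 58 counts in the other 11 cultures with DMSO and 4 to 76 in the 12 with the drug. The library labelled PKA-AS quadruple deletion culture 1 with DMSO had 20 counts of 1535257, and the library labelled PKA-WT quadruple deletion culture 1 with DMSO had 0 of 3598141. Each thus had the count of the other allele. Over the other 54 cultures, *YHL050C* was the only one of 6600 genes whose CPM did not overlap between the alleles. The pair was set aside for the counts of this gene, so its separation over the other cultures is no independent result. Y′ elements are near-identical copies, so these low counts are also uncertain. *GIS1* did not show the same crossing, with 3 counts in the library labelled PKA-AS and 0 in that labelled PKA-WT, where the other quadruple deletion cultures with DMSO had 0 to 6 and 0. These are low counts of a gene deleted in this background, and both alleles have cultures at 0, so they cannot decide the labels. The libraries were not reassigned. The results are given over all 28 cultures as labelled, and the calls and main values again over the 26 cultures without this pair, a choice made after the values were seen, so that the second set of calls is not independent of it.

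**Figure D1:**
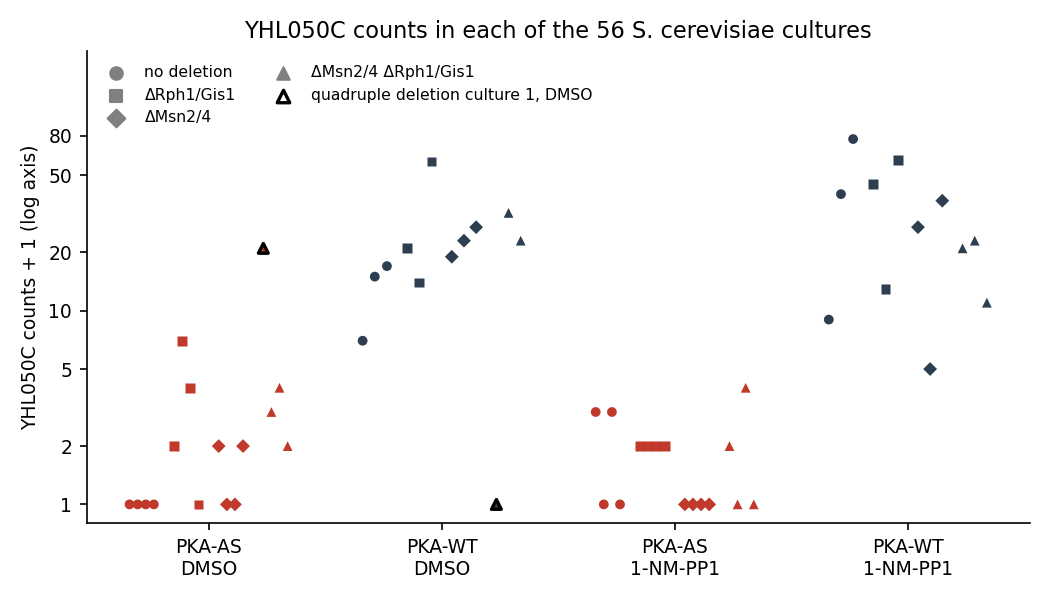
*YHL050C* counts plus 1 (log axis) in each of the 56 *S. cerevisiae* cultures, by allele and treatment, with a marker shape for each deletion background; black outlines mark the quadruple deletion cultures 1 with DMSO. The outlined PKA-AS library has 20 counts, and the outlined PKA-WT library has 0.

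Across the 4 backgrounds, the genes called between the alleles over 28 cultures, with deletion background as the only block, were all lower in PKA-AS. Over 28 cultures 10 of 5658 genes were called lower (0.177%) and 0 were called higher (0%). They were the subtelomeric *YHL050C*, the ammonium permease *MEP2*, the secreted acid phosphatase *PHO5*, the cyclin-dependent kinase inhibitor *CIP1*, *SPE2*, *URA1*, the amino acid permease *AGP1*, *YOR248W*, *HSP31* and *STF2*. The count rests on edgeR's test with deletion background as a block. At an unadjusted p under 0.05, 329 genes were lower (5.81%) and 271 higher (4.79%), and DESeq2 called 36 lower and 7 higher. With culture number as a further block, edgeR called 26 lower and 6 higher, and *YHL050C* was not among them. Without the pair described above, that fit called 74 lower and 56 higher. Without the pair, 28 of 5644 genes were called lower (0.496%) and 10 higher (0.177%), all 10 genes above included, and DESeq2 called 70 lower and 31 higher. The median LFC (log2 of PKA-AS over PKA-WT) of all genes was -0.03 in both fits, and 4 of the 10 genes were past -1.

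All 10 genes had a negative LFC in each of the 4 backgrounds. They also kept it in every alternative tried, and in cultures of the same number and background PKA-AS was below PKA-WT in 11 of 12 comparisons (12 of 12 for *STF2*), the exception being the pair above. The genes were called on these same cultures, so this agreement in sign follows largely from the selection and is no independent support. The share of all genes with such agreement is not given. No gene separated the 28 cultures without overlap (0 of 5658, 0%). Without the pair 2 genes did, *YHL050C* and *SPE2*, both lower in PKA-AS (0.0353%). The pair was left out for its *YHL050C* counts, so the separation of *YHL050C* follows from that choice and is no result of its own. *MEP2*, *CIP1*, *SPE2*, *URA1*, *AGP1* and *HSP31* stayed called without any single one of the 28 cultures. The call of *YHL050C* held in 7 of these 28 fits, those of *PHO5* and *YOR248W* in 4 and that of *STF2* in 5, with adjusted p up to 0.0307, and each was kept without either library of the pair. The calls of all 10 were lost when the cultures without deletion, the ΔRph1/Gis1 cultures or the ΔMsn2/4 cultures were left out, with no change of sign.

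Among the called genes were *MEP2* and *AGP1*, permeases that bring nitrogen compounds into the cell. *MEP2*, the high-affinity ammonium permease that also serves as a sensor for filamentous growth, (chromosome XIV, 357453 to 358952) had 4.82, 16.1 and 41.4 CPM (lowest, median and highest) in PKA-AS and 14.0, 53.2 and 181 in PKA-WT. All 16 PKA-AS cultures were below the PKA-WT median, and the ranges overlapped. Such counts of cultures, here and below, describe genes already called, and their share over all genes was not counted. Its LFC was -1.58 ± 0.26 (SE; adjusted p = 0.00212, edgeR) over 28 cultures and -1.76 ± 0.23 without the pair, 29.5% of the PKA-WT level. *AGP1*, a permease of broad specificity for amino acids (chromosome III, 76018 to 77919), had 84.3, 134 and 200.3 CPM in PKA-AS and 142, 238 and 320 in PKA-WT. Again all 16 PKA-AS cultures were below the PKA-WT median, and the LFC was -0.79 ± 0.12 (adjusted p = 0.000787) with all cultures and -0.89 ± 0.11 without the pair. *PUT1*, the proline oxidase that starts the use of proline as nitrogen source, was called without the pair only (LFC -1.04 ± 0.18 SE, adjusted p = 0.00120).

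*SPE2* was lower in PKA-AS and, without the pair, separated the alleles. It encodes S-adenosylmethionine decarboxylase, which feeds the synthesis of spermidine and spermine (chromosome XV, 232446 to 233636). In the strains without deletion its CPM was 32.5, 30.5, 23.7 and 29.4 in the PKA-AS cultures 1, 2, 2017 and 3, and 45.5, 65.1 and 49.1 in the PKA-WT cultures 1 to 3. In ΔRph1/Gis1 it was 23.3, 23.4, 17.96 and 24.9 against 37.5, 49.6 and 53.7, and in ΔMsn2/4 30.9, 35.2, 33.8 and 24.6 against 56.8, 70.0 and 78.4. Within these 3 backgrounds no PKA-AS culture reached a PKA-WT culture, but the share of all genes for which this holds was not counted. In the quadruple deletion it was 23.7, 20.1 and 22.1 in cultures 2 to 4 of PKA-AS and 42.9 and 45.0 in cultures 2 and 3 of PKA-WT, while the libraries labelled culture 1 had 47.0 for PKA-AS and 29.5 for PKA-WT. The LFC was -0.89 ± 0.13 (SE; adjusted p = 0.000595) and, without the pair, -1.02 ± 0.10 (SE; adjusted p = 4.34e-07).

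*URA1*, the dihydroorotate dehydrogenase of pyrimidine synthesis (chromosome XI, 25215 to 26159), had 324, 430 and 760 CPM in PKA-AS and 482, 823 and 1379 in PKA-WT. All 16 PKA-AS cultures lay below the PKA-WT median. The LFC was -0.82 ± 0.14 (SE; adjusted p = 0.00212), and -0.91 ± 0.13 (SE) without the pair. Of the 12 genes listed for pyrimidine synthesis, *URA1* alone was called in either fit. The list's median LFC was -0.35 (-0.36 without the pair) against -0.03 for all genes, and 11 of its 12 values were negative (54.8% of all genes were). *URA3*, also a marker gene of these strains, had -0.35 ± 0.25 (95% interval) and was not called.

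*CIP1*, an inhibitor of the G1 cyclin-dependent kinase (chromosome XVI, 527547 to 528692), differed between the alleles at levels that were far apart among backgrounds. Without deletion it had 23.0, 38.3, 25.1 and 26.9 CPM in PKA-AS cultures 1, 2, 2017 and 3 and 62.0, 61.0 and 87.3 in PKA-WT cultures 1 to 3. In ΔMsn2/4 it had 8.55, 10.7, 7.98 and 9.83 against 13.7, 19.8 and 28.5. In ΔRph1/Gis1, PKA-AS had 25.2 to 38.8 and PKA-WT 77.9 to 95.1. The LFC was -1.06 ± 0.15 (SE; adjusted p = 0.000595), and -1.16 ± 0.14 (SE) without the pair.

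*HSP31*, a methylglyoxalase and chaperone of the DJ-1 family, and *STF2*, a hydrophilin linked to survival of drying, are genes of stress survival. *HSP31* had 30.0, 61.9 and 95.2 CPM in PKA-AS and 42.4, 86.5 and 149 in PKA-WT, with 14 of 16 PKA-AS cultures below the PKA-WT median (LFC -0.69 ± 0.12, SE as in this whole paragraph, adjusted p = 0.00212). *STF2* had 13.8, 33.1 and 127 CPM against 21.5, 77.7 and 150, ranges that overlap (LFC -0.69 ± 0.13, adjusted p = 0.00895). Without deletion its PKA-AS and PKA-WT cultures had 35.6 to 83.5 and 103 to 145 CPM, and in ΔMsn2/4 13.8 to 19.0 and 21.5 to 26.1. Without the pair the LFCs were -0.74 ± 0.11 and -0.74 ± 0.14. *YOR248W*, which had no RefSeq match, had 132, 245 and 402 CPM in PKA-AS and 208, 365 and 851 in PKA-WT, with wide overlap (LFC -0.73 ± 0.14, adjusted p = 0.00895).

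For *YHL050C* itself, the LFC was -3.38 ± 0.62 (SE; adjusted p = 0.00755, edgeR) over all cultures and -4.38 ± 0.41 (SE) without the pair. The latter value is not independent of the choice of the pair, which was made on the counts of this gene. In the strains without deletion all 4 PKA-AS cultures had 0 counts and the 3 PKA-WT cultures 36 in all, so that the gene was at least 13.2-fold lower, taking 3 counts over the PKA-AS group as the limit. Y′ elements are near-identical copies at many chromosome ends, and reads without a unique alignment were not counted, so this level is uncertain.

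**Figure D2:**
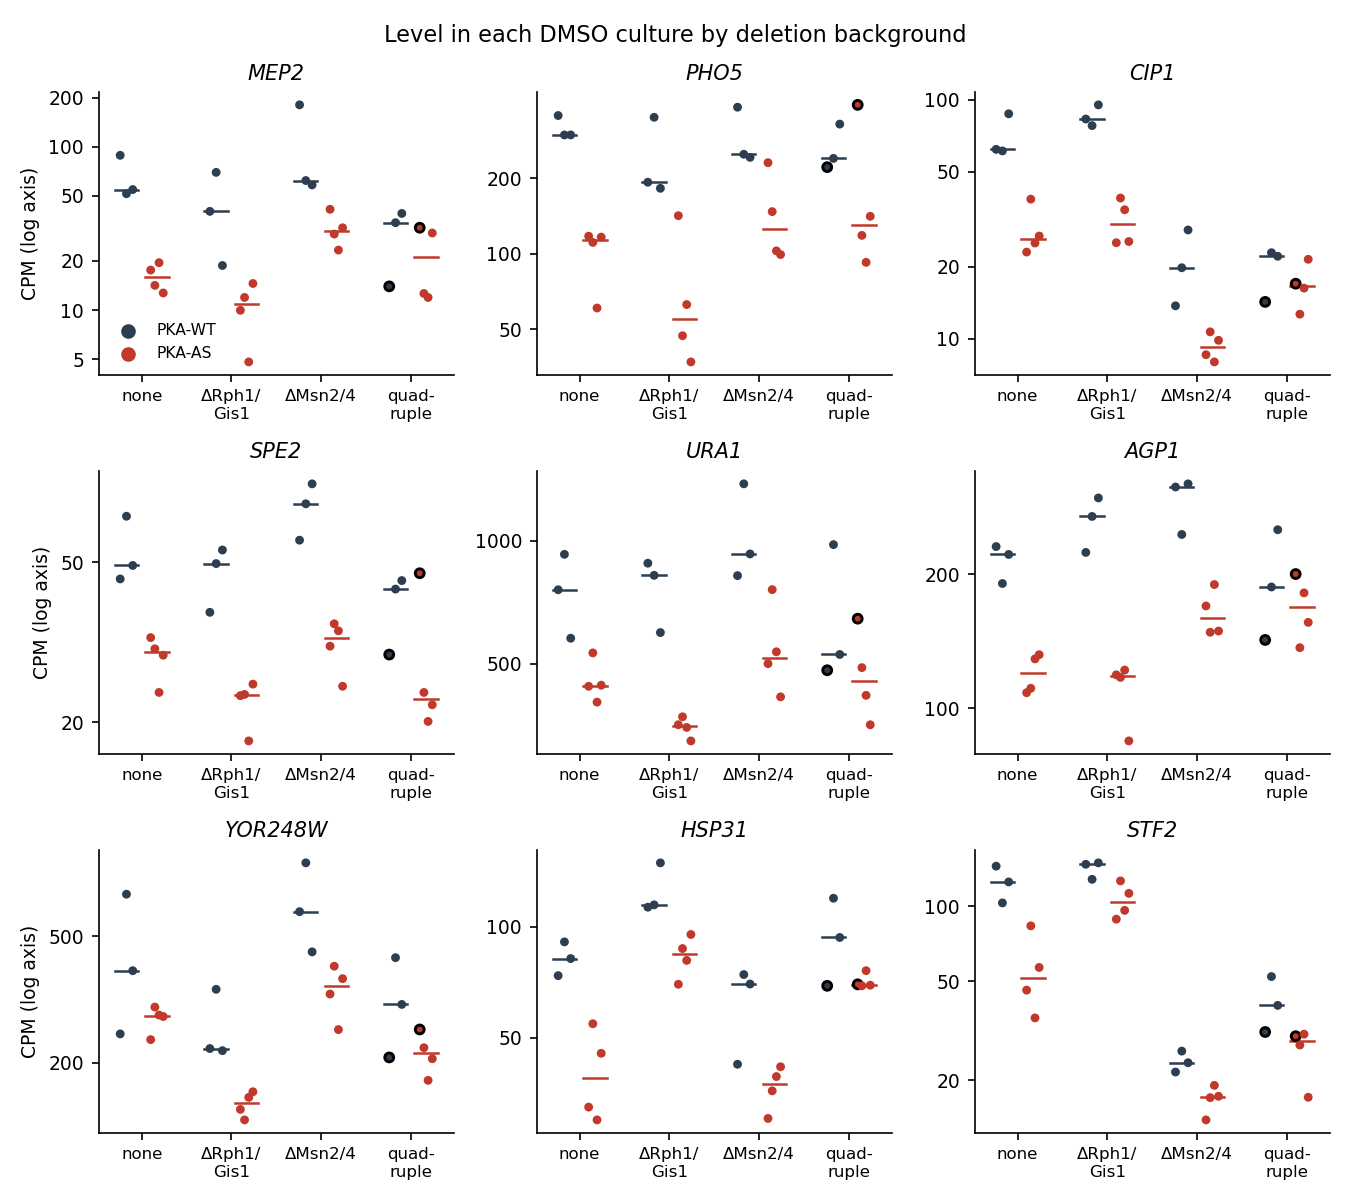
CPM (log axis) of the other 9 genes called over 28 cultures, in each DMSO culture, by deletion background; points are cultures, lines group medians, and black outlines mark the libraries labelled quadruple deletion culture 1. PKA-AS medians lie below PKA-WT medians in each background, and in the quadruple deletion the outlined points of 8 genes are in the opposite order.

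Genes of phosphate supply had the most negative median among the lists with at least 7 genes tested, with a call for *PHO5* over 28 cultures (1 of 16, where 0.177% of all genes were called lower) and for *PHO5*, *PHO12*, *SPL2* and *GIT1* without the pair (4 of 16, where 0.496% were). The list holds 16 genes, most of them activated by the factor Pho4 when phosphate is scarce: secreted phosphatases, transporters, polyphosphate synthesis and regulators. All 16 were tested, and all 16 had a negative LFC in both fits (median -0.70, and -0.94 without the pair, against -0.03 for all genes). At an unadjusted p under 0.05, 10 of the 16 were lower, where 5.81% of all genes were. The list was chosen with earlier results of these data known.

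Among the phosphatases, *PHO5* (chromosome II, 429548 to 430951) had 37.0, 114 and 391 CPM in PKA-AS and 182, 273 and 383 in PKA-WT. Of the 16 PKA-AS cultures 14 were below the lowest PKA-WT culture, and the highest value of all was that of the library labelled PKA-AS quadruple deletion culture 1. How many of all genes show such a split was not counted. Its LFC was -1.24 ± 0.23 (SE; adjusted p = 0.00895), and -1.43 ± 0.20 without the pair (adjusted p = 9.74e-05). *PHO12*, a further secreted phosphatase, had 65.7, 125 and 251 CPM in the 15 other PKA-AS cultures and 167, 248 and 382 in the 11 other PKA-WT cultures, and 337 and 212 in the pair. It was called without the pair (LFC -1.01 ± 0.32, 95% interval, adjusted p = 0.000415) and missed the threshold with it (-0.88 ± 0.36, adjusted p = 0.0160). *PHO11* and *PHO12* are near-identical, so their counts are uncertain, and *PHO3*, the constitutive neighbour of *PHO5*, had an LFC of -0.11 ± 0.82.

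Among transporters, *GIT1*, which takes up glycerophosphoinositol, was called without the pair (LFC -1.74 ± 0.74, adjusted p = 0.00849) but rested on a mean of 6.25 counts. The phosphate transporters *PHO84* and *PHO89* had LFCs of -0.34 ± 0.51 and -0.89 ± 0.71 over all cultures and were not called in either fit. Of the regulators, *SPL2*, an inhibitor that lowers low-affinity phosphate uptake, was called without the pair (-1.40 ± 0.59, adjusted p = 0.00819), and *PHO81*, the inhibitor of the kinase that restrains Pho4, had -0.21 ± 0.31. The subunits of the vacuolar transporter chaperone complex, which makes polyphosphate, had -0.64 ± 0.50 (*VTC1*), -0.15 ± 0.22 (*VTC2*), -0.70 ± 0.55 (*VTC3*) and -0.70 ± 1.11 (*VTC4*), and none was called. *GDE1*, a glycerophosphocholine phosphodiesterase, and *DDP1*, a polyphosphate phosphatase, which are not on the list, were called lower without the pair (-0.69 and -0.65).

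By background, the list's median LFC was -0.82 without deletion, -1.24 in ΔRph1/Gis1, -0.34 in ΔMsn2/4 and -0.10 in the quadruple deletion, or -0.66 there without the pair. Within the cultures numbered 1, 2 and 3 it was -0.39, -0.78 and -0.77. The summed CPM of the list was 3185 to 8087 in the 8 cultures that stood apart and 2061 to 5773 in the others, so that the level of these genes moved with that split as well. In ΔRph1/Gis1 the sum was 6007, 6947 and 3140 in PKA-WT cultures 1 to 3, of which 1 and 2 stood apart. In PKA-AS it was 3185 in culture 1, which stood apart, and 2061 to 2236 in the others. Without the 8 cultures numbered 1 and the PKA-WT ΔRph1/Gis1 culture 2, the list's median LFC was -0.53 and 5 members were called lower (1.01% of all genes were).

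The motif CACGTG, which is palindromic and is the core of the high-affinity Pho4 site, was searched in the 500 bases before each start codon. It is present before 12 of the 16 phosphate genes (75.0%) and before 374 of 6006 genes (6.23%). The match nearest to the start codon is printed for the 3 called genes that hold it, because the list was drawn up around this factor; *GIT1* has no match in this window, and 4 matches lie before *SPL2*. Sequences are from R64 (RefSeq) in the direction of the gene, with the motif in capitals. They lie on chromosome II at 431190 to 431213 (*PHO5*, minus strand) and on chromosome VIII at 551807 to 551830 (*PHO12*, plus strand) and 375117 to 375140 (*SPL2*, minus strand).
*PHO5*: tggcactcaCACGTGggactagca
*PHO12*: tggcgttcaCACGTGggtttaaaa
*SPL2*: cactgcagcCACGTGcctagatct
The first base of the motif is 253, 283 and 31 bases before the start codon. A match is a description of the sequence and no evidence of binding.

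**Figure D3:**
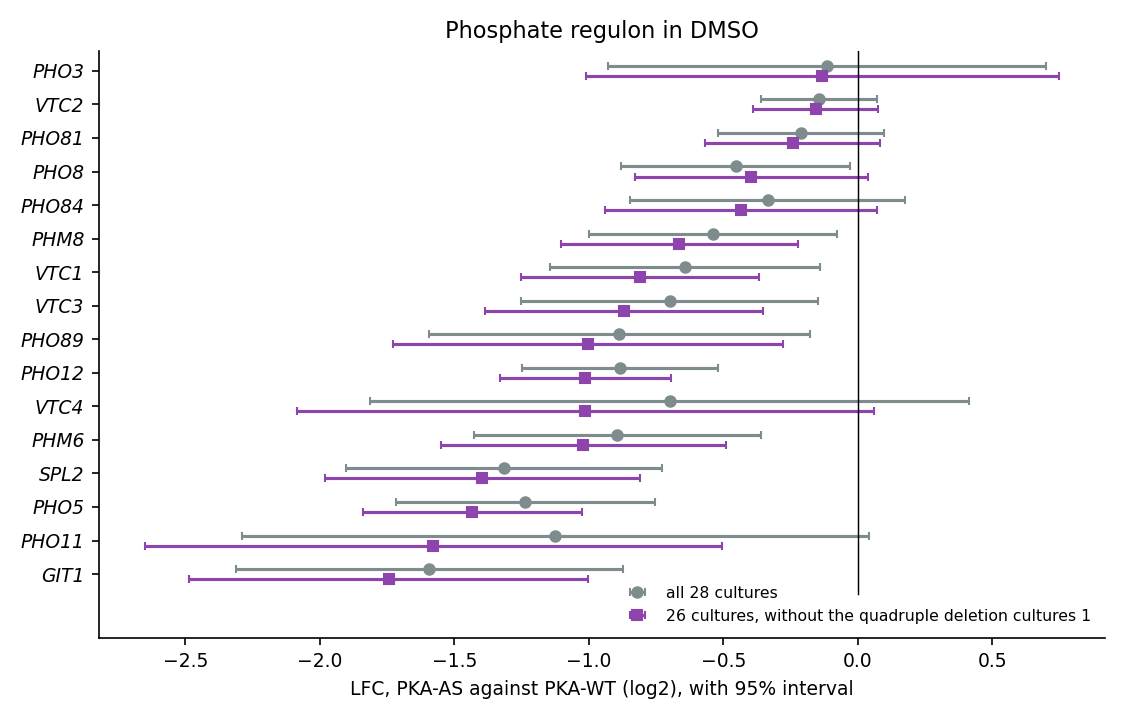
LFC of PKA-AS against PKA-WT (log2) with its 95% interval for the 16 phosphate genes, over all 28 cultures (circles) and over 26 cultures without the quadruple deletion cultures 1 (squares). All 32 points lie left of 0, and the interval excludes 0 for 10 genes in each fit.

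Among the genes of copper and zinc, 2 of 9, both zinc transporters, were called lower without the pair, where 0.496% of all genes were. *ZRT1*, the high-affinity zinc transporter, had 11.0, 33.7 and 138 CPM in the 15 other PKA-AS cultures and 20.9, 131 and 275 in the 11 other PKA-WT cultures, with 148 and 22.0 in the pair. The ranges overlapped. Its LFC was -1.65 ± 0.87 over all cultures (adjusted p = 0.0657, not called) and -2.06 ± 0.68 without the pair (adjusted p = 0.000619). *ZRC1*, which moves zinc into the vacuole, was also called without the pair only (-0.69 ± 0.28, adjusted p = 0.00555). The other 7 of the 9 copper and zinc genes tested were not called, and the list's median was -0.28 (-0.30 without the pair). Without the cultures numbered 1 and the PKA-WT ΔRph1/Gis1 culture 2, *ZRT1* alone was called (-1.80). *HSP30*, a stress protein of the plasma membrane that restrains the proton pump, had the most negative LFC after *YHL050C* without the pair (-3.13 ± 1.33, adjusted p = 0.00849), with 0 to 22.6 CPM in the 15 PKA-AS and 2.12 to 305 in the 11 PKA-WT cultures.

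Without the pair, 10 genes were called higher in PKA-AS by edgeR, and none of them was called with it in the same fit. With the pair kept, DESeq2 called 7 genes higher and the fit of all 56 cultures 9. *RPN5*, a subunit of the proteasome lid, had 153, 204 and 294 CPM in the 15 other PKA-AS cultures and 86.8, 117 and 170 in the 11 other PKA-WT cultures. The ranges overlapped by a little, and the pair had 125 in the library labelled PKA-AS and 268 in that labelled PKA-WT. The LFC was 0.81 ± 0.21 (adjusted p = 3.17e-05) without the pair and 0.66 ± 0.28 (adjusted p = 0.0203) with it. *DOG2*, a 2-deoxyglucose-6-phosphate phosphatase, had 0.82 ± 0.27, and *TOP1*, DNA topoisomerase I, had 0.61 ± 0.23. *CLB5*, an S-phase cyclin, and *CDC45*, a factor of replication origins, had 0.67 ± 0.28 and 0.66 ± 0.28, and *DBP8*, a helicase of ribosome assembly, had 0.62 ± 0.26. The others were *NTE1*, *SHE3*, *RER2* and *YJR079W*, with 0.58 for *NTE1*. Of all 38 genes called without the pair, 37 had the crossed order within it, as had 65.4% of all genes.

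Of the PKA subunits, *TPK2*, *TPK3* and *BCY1* were not called in either fit. *TPK2* had an LFC of 0.01 ± 0.25 (95% interval), *TPK3* of 0.08 ± 0.45 and *BCY1* of -0.26 ± 0.23, with adjusted p of 0.987, 0.936 and 0.363. The interval of *BCY1* excludes 0 (unadjusted p = 0.0254), with PKA-AS below PKA-WT in 10 of 12 cultures of the same number and background. Without the pair the LFCs were 0.01, 0.09 and -0.28. The level of *TPK2* was far apart among backgrounds in both alleles: PKA-AS had 52.9 to 80.9 CPM without deletion and 165 to 217 in ΔRph1/Gis1, and PKA-WT had 44.4 to 76.0 and 159 to 258. The background difference was not tested here. Of 13 genes of the Ras and cAMP branch tested, none was called, and LFCs ran from -0.32 (*RAS1*) to 0.21 (*IRA2*).

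Among the groups that PKA inhibition moves most, no gene was called between the alleles in DMSO over 28 cultures. The 28 tested stress genes with STRE elements, which Msn2 and Msn4 bind, had a median LFC of -0.29 and 0 calls in either direction (edgeR), whereas their median with 1-NM-PP1 in PKA-AS was 4.07. At an unadjusted p under 0.05, 5 of the 28 were lower and 0 higher (8 and 0 without the pair), where 5.81% of all genes were lower and 4.79% higher. Their median ran from -0.79 in ΔRph1/Gis1 to 0.17 in the quadruple deletion, and was -0.12 without the 8 cultures numbered 1 and the PKA-WT ΔRph1/Gis1 culture 2. *RTN2* had -1.20 and *HSP12* 0.55, and neither was called. The 20 genes of trehalose and glycogen had a median of -0.32 with 0 calls, and -0.13 without those 9 cultures. Of these, 2 were lower at an unadjusted p under 0.05 (6 without the pair), and *GLC3*, the glycogen branching enzyme, was the most negative at -0.94. The 92 genes of ribosome assembly tested had a median of 0.05 in DMSO and -3.99 with the drug in PKA-AS. At an unadjusted p under 0.05, 8 were higher and 1 lower in DMSO, and *DBP8* was the 1 member called without the pair (0.177% of all genes were called higher). Cytoplasmic ribosomal proteins (133) had -0.19 in DMSO with 0 calls (3 lower and 2 higher at an unadjusted p under 0.05) and -3.42 with the drug. Their DMSO median was -0.28 without the pair and -0.17 without the 8 cultures numbered 1. It was 0.13 when the PKA-WT ΔRph1/Gis1 culture 2 was left out as well, so its sign changed with the added removal of this culture. The comparison of alleles in DMSO and that of drug against DMSO share the PKA-AS DMSO cultures.

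**Figure D4:**
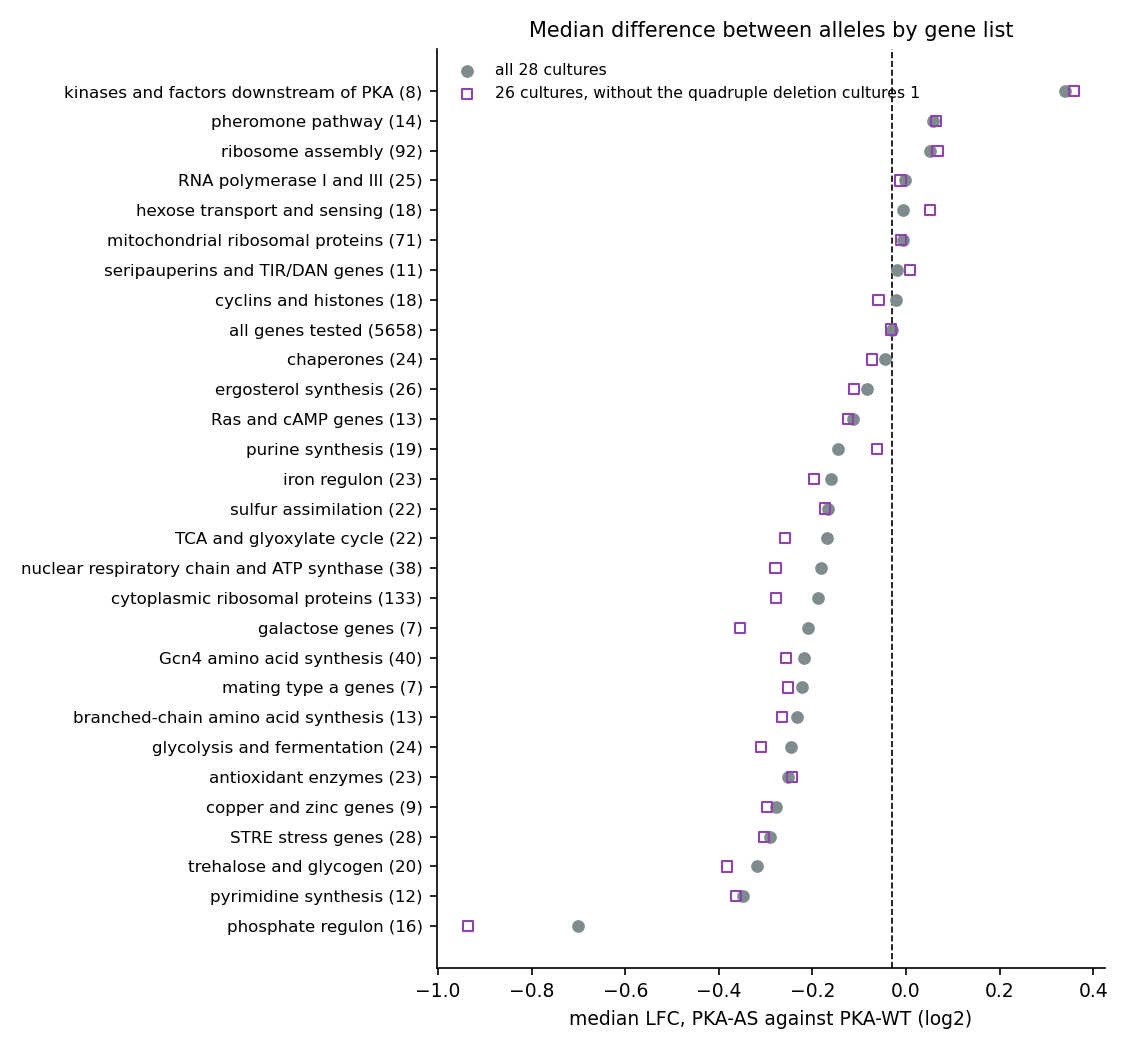
Median LFC of PKA-AS against PKA-WT in DMSO (log2) for lists with at least 7 genes tested (number in brackets), over 28 cultures (circles) and without the quadruple deletion cultures 1 (squares); the dashed line is the median of all genes. The phosphate regulon is at -0.70 and -0.94, and the STRE stress genes are at -0.29 and -0.30.

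Side by side with the drug response, the 10 called genes went in both directions. With 1-NM-PP1 in PKA-AS, 4 of them were called higher (*STF2* 3.27, *HSP31* 2.25, *CIP1* 1.19 and *AGP1* 0.96) and 4 lower (*URA1* -4.21, *PHO5* -2.07, *YOR248W* -1.73 and *SPE2* -1.70), each with background shares of 29.3% of genes called higher and 28% called lower. *MEP2* had 0.53 (adjusted p = 0.0405), and *YHL050C* was not called. In PKA-WT the drug called *URA1* alone among them (-1.49; 1.77% of genes were called lower). The difference between alleles with the drug present was -0.01 for *CIP1* and 0.03 for *AGP1*, neither called, and -1.38 for *MEP2*, which was called; 48.5% of genes were called in that comparison.

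Within single backgrounds no gene was called over 28 cultures (0% in each, edgeR). At an unadjusted p under 0.05, 125 genes were lower and 76 higher without deletion, 379 and 161 in ΔRph1/Gis1, 150 and 133 in ΔMsn2/4, and 54 and 14 in the quadruple deletion, or 64 and 40 there without the pair. In ΔRph1/Gis1 the cultures that stood apart on the first principal component are PKA-AS culture 1 and PKA-WT cultures 1 and 2, so that split is uneven between the alleles. DESeq2 called 4 genes lower without deletion and 3 in ΔRph1/Gis1. Of the 10 genes, 9 had their smallest LFC in the quadruple deletion: *MEP2* had -2.03 ± 0.97, -2.06 ± 0.99, -1.67 ± 0.96 and -0.44 ± 0.98 in the order above, and -1.04 ± 1.10 in the quadruple deletion without the pair. *AGP1* had -0.84 ± 0.42, -1.25 ± 0.42, -0.84 ± 0.42 and -0.20 ± 0.42, and -0.48 ± 0.47 without the pair. *SPE2* had -0.87, -1.07 and -1.13 in the first 3 backgrounds and -0.47 in the quadruple deletion, or -1.0 ± 0.50 there without the pair. Without the pair, the number of genes with their smallest LFC in the quadruple deletion was 4 of 10 (*MEP2*, *CIP1*, *AGP1* and *HSP31*).

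The test of an allele by background interaction called 0 genes (0% of 5658, edgeR; 90 at an unadjusted p under 0.05, or 72 without the pair, and 0 with DESeq2). The genes with the smallest p were *HSP42*, *LYS1*, *AIM21*, *RGS2*, *BER1* and *TOS8*, all with an adjusted p of 1.00. *TOS8*, a homeodomain factor, had -2.27 without deletion and -0.14 in the quadruple deletion, or -0.64 there without the pair. Across backgrounds it was called lower without the pair (-1.25 ± 0.43, adjusted p = 0.00120).

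**Figure D5:**
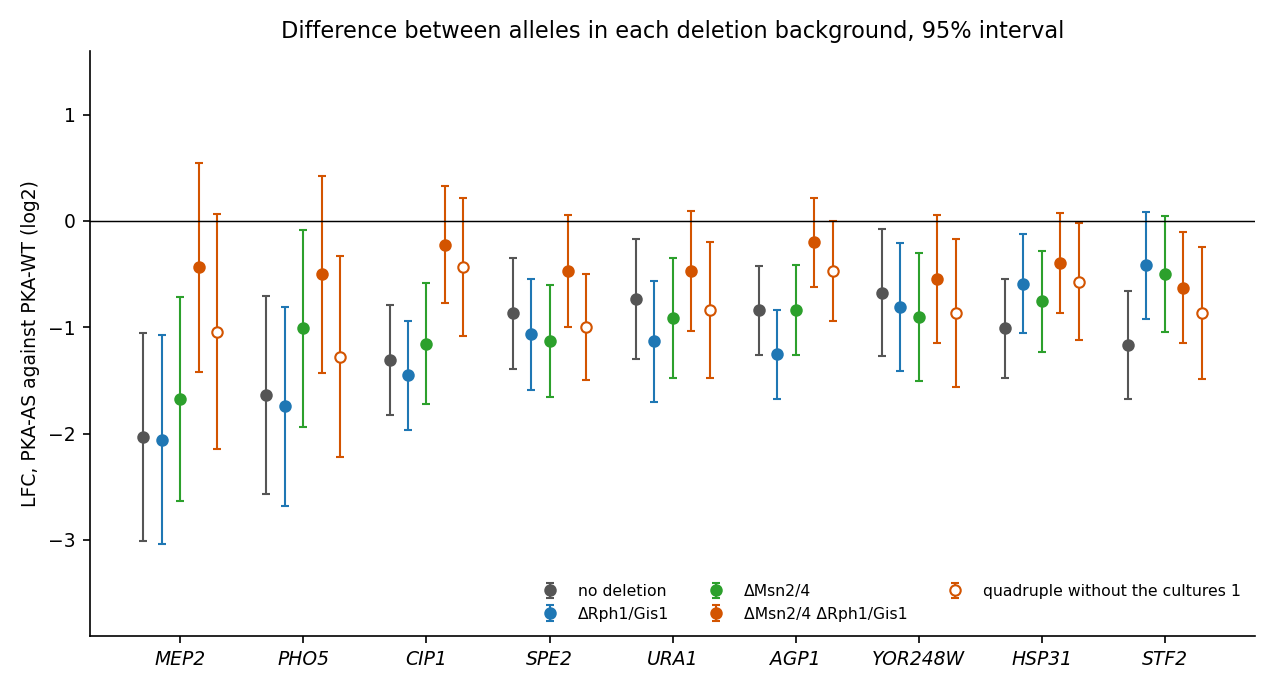
LFC of PKA-AS against PKA-WT (log2) with its 95% interval for 9 called genes in each deletion background; open circles are the quadruple deletion without the cultures 1. *MEP2* is near -2 without deletion and in ΔRph1/Gis1 and at -0.44 in the quadruple deletion, or -1.04 without the pair.

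Genes that mark the strains were compared because the parents differ. *NHP6A* is the gene of the nuclear marker that the PKA-AS base strain carried. *NHP6A* had an LFC of -0.66 ± 0.52, *ADE2* of -0.51 ± 0.96, *LEU2* of -0.21 ± 0.43, *TRP1* of 0.24 ± 0.27 and *CAN1* of 0.35 ± 0.64, and none was called in either fit (-0.67, -0.64, -0.25, 0.30 and 0.46 without the pair). The ranges of both alleles overlapped for each.

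In *K. lactis*, where the PKA-AS strain was made from the same parent as PKA-WT, 4 PKA-AS and 2 PKA-WT cultures without deletion were compared. No gene of 5172 was called (0%, edgeR; 160 lower and 109 higher at an unadjusted p under 0.05, and 2 lower with DESeq2). The ortholog of *URA1* had 354, 212, 124 and 284 CPM in PKA-AS and 364 and 744 in PKA-WT, with an LFC of -1.18 ± 0.87 (95% interval). That of *AGP1* and its paralog had 120, 138, 86.8 and 95.5 against 171 and 232 (-0.87 ± 0.73). The ortholog of *SPE2* had -0.70 ± 0.75, and those of *SPL2* and *PHO8* had 0.64 ± 1.84 and -0.25 ± 0.52. None was called, with adjusted p of 0.854 to 0.913.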

How the data were processed

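The counts used are those the authors deposited for each QuantSeq 3′ FWD library, aligned to R64 in the Bluebee pipeline for QuantSeq and counted with HTSeq (intersection-nonempty) on the R64 annotation with added 3′ UTRs. The version of HTSeq is not given in the sources used here. Deposited log2 fold changes, p-values and mean values of the authors' own comparisons were not used, other than ortholog names for *K. lactis*. Medians of 5.07% of reads on no gene, 2.92% ambiguous and 8.15% without unique alignment stayed out of totals and tests. Precision is limited by depth, and limits from counts cover counting error only.

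Repeat libraries of a culture were summed. A gene was tested where 3 or more cultures had 2 or more counts, with edgeR 4.0.16 (quasi-likelihood, TMM, limma 3.58.1, R 4.3.3), allele and background as terms and Benjamini-Hochberg adjustment over all genes tested. Calls were made at an adjusted p under 0.01. DESeq2 1.42.0 was an alternative. A value after ± is the SE for the LFCs across backgrounds of the 10 called genes and of *PUT1*. For all other LFCs, those within single backgrounds included, it is the 95% interval. Nothing states how separately cultures were grown, so p-values measure the spread between these samples. The fit was tested on simulated counts with background and allele effects only. That test does not cover an effect of culture number or a crossed pair of libraries. Genes were named by rule: called genes with a mean of at least 10 counts and 1 direction in all backgrounds (12 at most in each direction), PKA subunits, deleted factors, strain markers, up to 3 called members of a list and the 6 smallest interaction p-values. Genes called only without the pair, and other list members, were named after their values were seen. A gene that the rule names is not reported here. Members and lists were chosen with earlier results of these data known. Coordinates are RefSeq's (R64), matched by locus name.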

Additional observations from a re-analysis of the deposited data

Results flagged for a closer look

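Within groups of 4 PKA-AS cultures, 7 of 108 tested combinations of gene and background held a culture far from the other 3, where chance gives about 1 in 20. *PHO5* without deletion was lowest in culture 2017, at 60.7 CPM against 111 to 117. *AGP1* in ΔRph1/Gis1 was lowest in culture 4, at 84.3 CPM against 117 to 122. *HSP31* in the quadruple deletion was highest in culture 3, at 76.0 CPM against 69.2 to 69.8. *TPK3* in ΔMsn2/4 was lowest in culture 1, at 78.3 CPM against 156 to 174, and *TOS8* in ΔMsn2/4 was highest in culture 1, at 9.21 CPM against 4.34 to 4.91. *LEU2* without deletion was highest in culture 2, at 1385 CPM against 694 to 769. *CAN1* was lowest in the library labelled PKA-AS quadruple deletion culture 1, at 1.30 CPM against 6.31 to 7.65. Only the last of these belongs to the pair whose *YHL050C* counts go against the labels. These values were not tested further.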

How the results depend on the processing

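The count of genes called across backgrounds was 10. It was 10 with RLE scaling, without the count filter, with a mean of at least 10 counts or with the first library only, and 7 with upper-quartile scaling. It rose to 43 with DESeq2, 32 in the fit of all 56 cultures, 39 at an adjusted p under 0.05 and 21 without the quadruple deletion. It fell to 1 without the cultures numbered 4 and 2017, 2 without the background block, and 0 against a change of 1, without the cultures without deletion, without ΔRph1/Gis1, without ΔMsn2/4, and within the cultures numbered 1 or 2 (9 within those numbered 3). Leaving out 1 culture gave 6 to 33 calls, the highest without the library labelled PKA-WT quadruple deletion culture 1, and 18 without its PKA-AS counterpart. Chosen after seeing the data, it was 38 without that pair (101 with DESeq2, 39 in the fit of 54 cultures), 34 without the cultures numbered 1 and 63 without these and the PKA-WT ΔRph1/Gis1 culture 2. The subsets hold fewer samples; beyond that, the cause was not tested.

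The culture numbers are shared by the alleles, and same-numbered cultures correlated in their deviations (r of 0.173 to 0.853) except number 2 of ΔRph1/Gis1 (-0.273), so they were not taken as paired. With a replicate block 32 genes were called across backgrounds (6 higher, 26 lower), and 130 without the pair (56 higher, 74 lower). Of the 10 called genes, 9 were called with the replicate block, and *YHL050C* had an adjusted p of 0.0146. Within the strains without deletion, ΔMsn2/4 and the quadruple deletion all 3 pairs were over 0.1, and the count stayed 0 with the replicate block. Within ΔRph1/Gis1 the count of 0 became 2 with the replicate block, 3 with DESeq2, 1 without the pair, 1 without the cultures numbered 1 and 0 to 2 without 1 culture, and without deletion it became 4 with DESeq2. In *K. lactis* it became 2 with DESeq2 and stayed 0 with the replicate block. The interaction count was 0 in every alternative tried, and the count with 1-NM-PP1, 2802, was 2816 with RLE scaling. The LFCs of the 10 called genes, which were selected on these same cultures, were negative in all alternatives. Depth limits *YHL050C*, *GIT1*, *PHO11* and *GIS1*, which had means of about 10 counts or fewer.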

Other observations

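Lists not described above had 0 calls over 28 cultures (edgeR, adjusted p under 0.01), but some held more genes lower at an unadjusted p under 0.05 than the share of all genes. At an unadjusted p under 0.05, 5.81% of all genes were lower and 4.79% higher. Of 24 genes of glycolysis and fermentation, 23 had a negative LFC, with a median of -0.24 and 2 lower at an unadjusted p under 0.05. The median was -0.20 without the cultures numbered 1. It was 0.08, with a changed sign, when the PKA-WT ΔRph1/Gis1 culture 2 was left out as well. Antioxidant enzymes (23 tested) had a median of -0.25 with 6 lower and 0 higher at an unadjusted p under 0.05, and -0.22 without those 9 cultures, where 2 members were called lower (*TSA2* and *TRX2*; 1.01% of all genes were). The 40 genes of amino acid synthesis under Gcn4 had a median of -0.22 with 7 lower and 1 higher at that level, and -0.10 without those cultures, where *THR4* was called lower. Nuclear genes of the respiratory chain and ATP synthase (38) had -0.18, -0.16 without the cultures numbered 1, and 0.06 without those 9 cultures. Without the quadruple deletion pair these 4 lists had medians of -0.31, -0.24, -0.26 and -0.28. The 3 mitochondrially encoded genes tested had a median of -0.81, -1.18 without the pair and 0.69 without those cultures. At an unadjusted p under 0.05, branched-chain amino acid synthesis (13 tested) had 3 lower and 0 higher. Sulfur assimilation (22) had 4 and 0, and the TCA and glyoxylate cycle (22) had 3 and 0. Mitochondrial ribosomal proteins (71) had a median LFC of -0.01, with 4 higher and 0 lower at an unadjusted p under 0.05. All genes had -0.03, and 0.01 without those cultures.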
